A study of Mus musculus with 2 samples.

Results

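The glucocorticoid receptor and 9 genes tied to its activity were followed through the differentiation of mouse brown preadipocytes. The 10 genes were found by their symbols in the deposited expression table: the receptor Nr3c1, the cortisone reductase Hsd11b1, and the classic dexamethasone-induced genes Fkbp5, Tsc22d3, Per1, Zbtb16, Sgk1, Mt1, Mt2 and Dusp1. All 10 had values, among 23361 genes with values in all, and all 10 were above 0 in both libraries, as were 14986 genes of the table.

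RNA-Seq was performed on cells of interscapular brown fat from newborn C57BL/6 mice, with 1 library of brown preadipocytes (D0) and 1 library of brown adipocytes (D7). The growth medium of the cells held 20% serum. Preadipocytes were kept for 4 days before induction in medium with 10% serum. To it the active thyroid hormone T3 (1 nM) and insulin (0.1 μM) had been added. From day 0, the medium was supplemented with 0.5 mM IBMX, an inhibitor of cAMP breakdown, 2 μg/ml dexamethasone, a synthetic glucocorticoid, and 0.125 mM indomethacin, and 2 days later with none of these. The D7 cells therefore met dexamethasone during the first 2 days and were collected after its removal. The labels leave it unclear whether the 7 days run from induction, which the methods of the study also call day 0, or from that change of medium, and whether the D0 cells were taken just before the inducers were added. The labels and the study call the sequenced cells primary cultures, although the methods of the study also describe immortalization with large T and give other concentrations of insulin and dexamethasone. Whether cells of several pups were pooled is not stated in the sources used here.

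Expression is given as FPKM, fragments scaled to transcript length and to the size of the library, so levels can be compared between genes per length. About 21480000 fragments at D0 and 18260000 at D7 stand behind the values, as recovered from low values of genes with a single exon. Intervals are exact 95% Clopper-Pearson intervals on the recovered fragments. Such an interval holds counting error alone and speaks of these 2 libraries, because neither stage was repeated, and tests with p-values were therefore not possible. A gene is called higher or lower at D7 where the ratio of D7 to D0 reached 2.0 or 0.5. In bulk RNA, fewer cells of a type and less RNA per cell cannot be told apart. Adipocyte markers were higher at D7 in 9 of 9 genes, with a summed FPKM of 84.9 that became 18708, and of 8 preadipocyte markers, summing to 4258 at D0 and 2110 at D7, 3 were lower and 2 were higher. Of 8 brown markers, summing to 9.21 and 712, Ucp1, Elovl3, Cidea and Cox8b were listed at 0 at D0 and had FPKM of 4.57, 34.2, 24.4 and 253 at D7. Of the other 4, Cox7a1, Dio2 and Ppargc1a were higher, and Prdm16, a regulator of brown fat identity, had a ratio of 1.22 (0.965 to 1.53).

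Glucocorticoids enter the cell and bind the receptor, which waits in the cytoplasm in a complex with heat shock proteins and immunophilins. The bound receptor moves to the nucleus, where it raises transcription from glucocorticoid response elements (GREs) and lowers the activity of inflammatory genes. Dexamethasone is a standard component of adipogenic cocktails, because glucocorticoid signalling early in differentiation promotes the expression of adipogenic transcription factors. Hsd11b1 regenerates active glucocorticoid inside the cell from its inactive keto form, and the other genes here are among those used most often as readouts of receptor activity.

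Promoter sequences show which of these genes carry letters of a GRE next to a transcription start. RefSeq promoter windows (GRCm38.p6, the mm10 build) were at hand for 16 transcription starts of 8 of the genes. Nr3c1 and Zbtb16 had no window and were not searched. For the others, the 250 bases before each start were searched on both strands. Sequence farther away or inside the genes was not searched, so a window without a match does not show that a gene lacks a GRE. The core GNACA, followed after any 3 bases by TGTNC, where N is any base, was found in 127 of 32851 windows of all genes, or 0.387%. Among the 16 windows it was found once in the window of Mt1 and once in that of the Sgk1 start at 21993890, with its first base at positions -94 and -188 from the start. These are shown with the GRE match in capitals. The window of Mt1 is chr8:94178839-94179088 on the plus strand, and that of Sgk1 is chr10:21993640-21993889 on the plus strand.
Mt1: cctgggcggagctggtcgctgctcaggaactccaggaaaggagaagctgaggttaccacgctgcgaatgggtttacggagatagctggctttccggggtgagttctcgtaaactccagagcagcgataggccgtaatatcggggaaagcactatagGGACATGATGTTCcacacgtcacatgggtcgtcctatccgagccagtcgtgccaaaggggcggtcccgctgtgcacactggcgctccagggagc
Sgk1: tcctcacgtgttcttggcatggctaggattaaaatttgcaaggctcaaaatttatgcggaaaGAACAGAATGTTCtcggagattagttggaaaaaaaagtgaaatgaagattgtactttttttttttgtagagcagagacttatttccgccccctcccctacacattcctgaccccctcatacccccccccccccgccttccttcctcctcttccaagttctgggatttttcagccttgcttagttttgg

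The windows of Mt2 and Dusp1 are shown because they hold motifs of other signals that these genes are known to answer. Metallothionein genes carry metal response elements (MREs), whose core was searched as TGCACNC or TGCGCNC, with matches of both forms counted together. The Mt2 window (chr8:94172368-94172617, plus strand) held 3 such matches, shown in capitals, and 1.26% of all windows held 3 or more. The Mt1 window held 1, and 21.4% of all windows held at least 1. The window of Hsd11b1 and 1 window of Per1 also held 1 each. Bases after the annotated start were not searched. The counts therefore depend on where a start is annotated and do not rank Mt1 against Mt2. Dusp1 is known to be induced by cAMP as well as by glucocorticoids, and its window (chr17:26508473-26508722, minus strand) held the full cAMP response element TGACGTCA, also in capitals, at position -143. This element was in 1.55% of all windows and in neither window of Per1, a gene also raised by cAMP. Other motifs were searched as well and are not described here. The sequences are read 5′ to 3′ on the strand of the gene, and a match of letters does not show binding.
Mt2: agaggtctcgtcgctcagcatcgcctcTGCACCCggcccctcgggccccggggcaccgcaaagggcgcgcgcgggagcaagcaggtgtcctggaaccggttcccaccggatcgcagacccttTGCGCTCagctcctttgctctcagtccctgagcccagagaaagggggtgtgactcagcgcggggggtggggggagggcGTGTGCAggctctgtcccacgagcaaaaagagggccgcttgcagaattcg
Dusp1: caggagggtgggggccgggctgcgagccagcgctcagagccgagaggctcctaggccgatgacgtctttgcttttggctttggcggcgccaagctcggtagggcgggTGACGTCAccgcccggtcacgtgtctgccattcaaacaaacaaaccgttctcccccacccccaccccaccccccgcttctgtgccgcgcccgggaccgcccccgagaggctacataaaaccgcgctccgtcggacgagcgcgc

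By this threshold 7 of the 10 genes were higher in brown adipocytes and 0 were lower. Across all 14986 genes above 0 in both libraries, 18.5% were higher and 13.2% were lower. The 7 genes were Zbtb16, Fkbp5, Hsd11b1, Tsc22d3, Mt2, Per1 and Mt1, while Nr3c1, Sgk1 and Dusp1 changed by less than 2.0-fold. The median log2 ratio was 1.46 over the 10 genes and 0.02 over all genes. A library-median scaling, in which FPKM under 0.01 were raised to 0.01 and every library was then divided by its own median, shifted the median log2 ratio of all genes to -0.35. Mt1 and Per1 then no longer reached 2.0-fold, so that 5 of the 10 genes were higher. Raising the zeros brings all 23361 genes with values into the count, of which 2836 (12.1%) were higher and 3832 (16.4%) lower under this scaling, and 3660 and 2519 with the floor of 0.01 alone. Among the 14986 genes above 0 and unscaled, these were 2767 and 1980. The methods of the study name the GeneSpring program for calling changed genes and state no scaling. At 4.0-fold, 4 of the 10 genes were higher (Zbtb16, Fkbp5, Hsd11b1 and Tsc22d3), beside 8.08% of all genes.

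**Figure D1:**
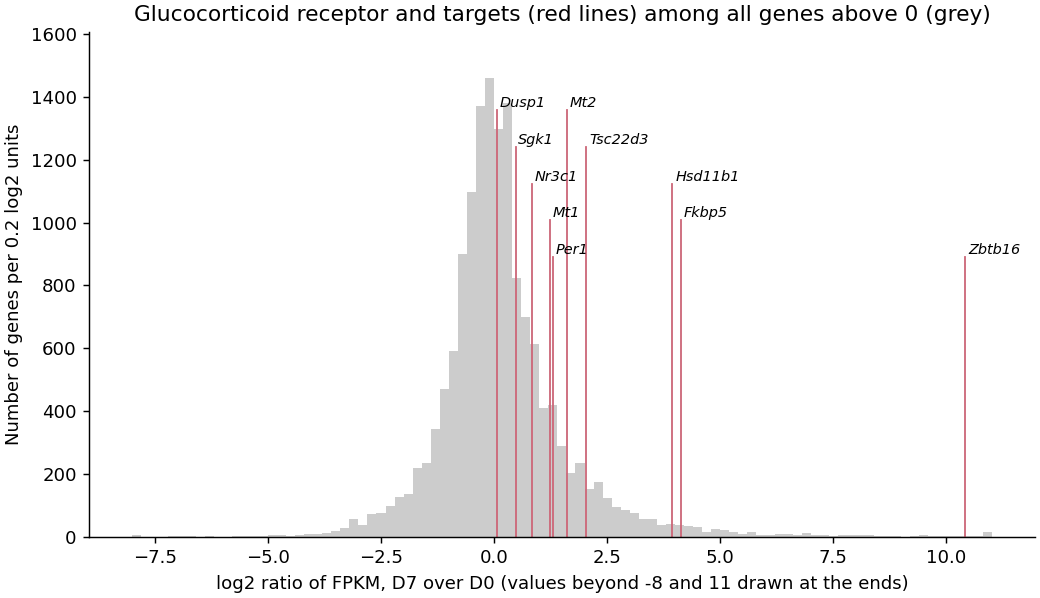
Histogram of the log2 ratio of FPKM (D7 over D0, x axis) for the 14986 genes above 0 in both libraries, as numbers of genes per bin (y axis), with the 10 glucocorticoid genes as red lines whose heights carry no value. Dusp1 at 0.06 lies in the middle of the distribution, whereas Hsd11b1 at 3.94, Fkbp5 at 4.12 and Zbtb16 at 10.42 lie in its right tail.

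Macrophage markers also moved between the libraries. Their summed FPKM was 156 at D0 and 585 at D7, 11 of 12 were higher by at least 2.0-fold, and none was listed at 0. Macrophages express the receptor and several of its targets, and their part in the values of the 10 genes was not tested. Endothelial markers summed to 1.58 FPKM in preadipocytes and 2.62 in adipocytes, with Pecam1 at about 1 fragment in each library. Of the 5 above 0 in both, 2 were higher and 1 was lower by at least 2.0-fold. Tek had about 50 and 132 fragments and Kdr about 37 and 69, whereas Cdh5 fell from about 13 to 2. Of 5 erythroid markers measured, 4 were listed at 0 in both libraries. Among skeletal muscle markers, Acta1 fell from an FPKM of 45.4 to 1.73, Myod1 and Ckm were listed at 0 in both libraries, and Myog, Myh3 and Myh8 had at most about 2 fragments in a library.

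The receptor itself was present at both stages. Nr3c1 (ENSMUSG00000024431.15, chromosome 18, 39410545 to 39519421, minus strand of mm10) measured 11.1 FPKM at D0 against 19.7 at D7. This ratio of 1.78 (95% interval 1.66 to 1.90, from about 1463 and 2208 fragments) excluded both 1 and 2.0 by counting error at the length of the named transcript. The level of Nr3c1 lay at the 75.8 percentile of all genes with values at D0 and at the 83.3 percentile at D7. The annotation lists 9 transcripts of Nr3c1, and 1 value per gene does not tell its isoforms apart. The mineralocorticoid receptor Nr3c2, which also binds glucocorticoids, measured 0.536 FPKM at D0 against 0.743 at D7. Its ratio of 1.39 had an interval from 0.988 to 1.99, so that a difference was not detectable at this depth. Per length, Nr3c1 exceeded Nr3c2 by 20.7 times at D0 and 26.5 times at D7.

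Enzymes that set the amount of active steroid were led by Hsd11b1 (ENSMUSG00000016194.14, chromosome 1, 193221634 to 193264075, minus strand). It measured 1.16 FPKM at D0 against 17.8 at D7 (ratio 15.4, interval 10.6 to 23.4) from about 29 and 381 fragments, and its rank by ratio was 323 among the 14986 genes. H6pd, which supplies the NADPH that Hsd11b1 uses inside the endoplasmic reticulum, measured 45.6 FPKM at D0 against 86.2 at D7 (ratio 1.89, interval 1.82 to 1.96). Hsd11b2, which inactivates glucocorticoid, stayed near the detection limit with FPKM of 0.223 and 0.164, and its interval from 0.189 to 2.55 included 1. Per length, Hsd11b1 at D7 was thus near the level of the receptor (19.7), whereas at D0 it was far below it (11.1).

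Of the 12 genes for receptors and steroid handling, 9 were above 0 in both libraries. The 3 (33.3%) that were higher by at least 2.0-fold were Hsd11b1, Akr1c14 and Abcb1a, and 0 were lower. Over all genes, 18.5% were higher and 13.2% lower. Akr1c14, a reductase of steroids, had FPKM of 0.432 and 2.83, a ratio of 6.56 (4.06 to 10.9). Abcb1a, an efflux pump for drugs and steroids, rested on about 4 and 13 fragments, with an interval from 1.18 to 16.1. Its paralog Abcb1b had FPKM of 1.51 and 1.54, and the reductase Srd5a1 had 1.05 and 1.46. Cyp11a1 and Cyp11b1, which make steroids in the adrenal gland, were each listed at 0 in 1 library. Cyp11a1 was at 0 at D0 and had about 5 fragments at D7. Cyp11b1 had about 11 fragments at D0 and was at 0 at D7, with an interval from 0 to 0.469. Cyp11b2 was listed at 0 in both.

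**Figure D2:**
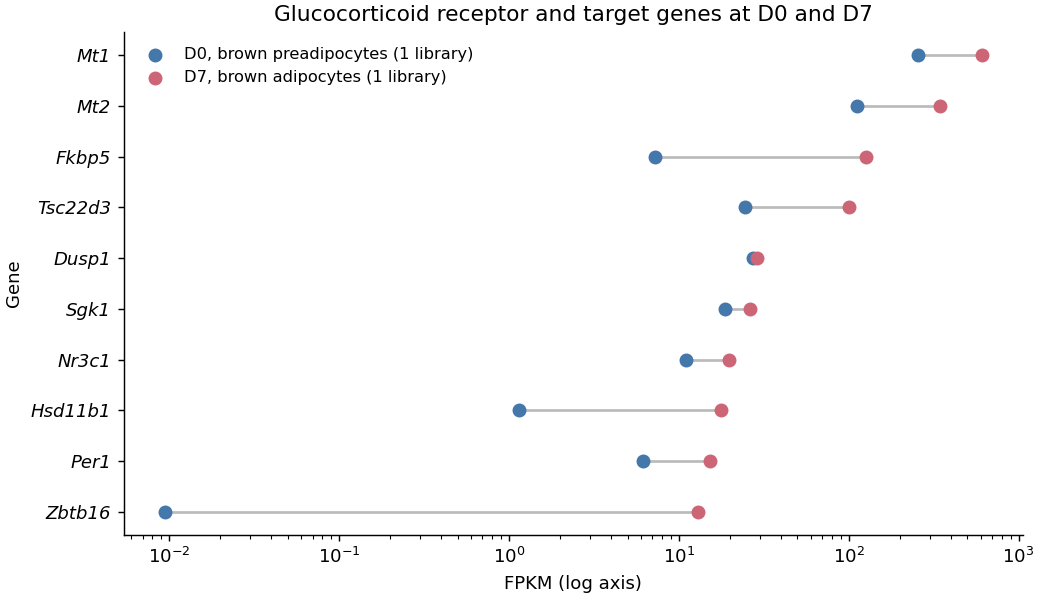
FPKM of the 10 genes (x axis, log scale) at D0 (blue) and D7 (red), 1 library per stage and no error bars for lack of replicates, ordered by the level at D7. Mt1 and Mt2 had the highest levels at both stages, and Zbtb16 went from 0.00944 to 12.9.

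Fkbp5 had the highest ratio of the 10 genes after Zbtb16. It encodes FKBP51, an immunophilin that binds Hsp90 in the receptor complex, lowers the affinity of the receptor for its hormone, and thereby closes a negative feedback loop. Fkbp5 (ENSMUSG00000024222.17, chromosome 17, 28399094 to 28517527, minus strand) measured 7.21 FPKM at D0 against 126 at D7 (ratio 17.4, interval 15.9 to 19.1) from about 521 and 7717 fragments. By ratio it ranked 295. Fkbp4 encodes FKBP52, which competes for the same site and favours hormone binding. It measured 42.0 FPKM at D0 against 41.3 at D7 (ratio 0.985, interval 0.918 to 1.05). Fkbp5 therefore stood at 0.172 times the level of Fkbp4 at D0 and at 3.04 times at D7.

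Fkbp5 was also the only one of 14 chaperone genes of the receptor complex that was higher by at least 2.0-fold, and 0 were lower. The next highest ratios were those of Bag1 (1.45) and St13 (1.21), which are cochaperones of Hsp70. The lowest were those of Hsp90ab1 (0.594), the constitutive Hsp90, Stip1 (0.683), which links Hsp70 to Hsp90, and Hspa4 (0.740). The median log2 ratio of the 14 genes was -0.05, and over all genes 18.5% were higher and 13.2% lower by at least 2.0-fold. Under the library-median scaling, 1 chaperone gene, Hsp90ab1, passed 2.0-fold downward.

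Tsc22d3 encodes GILZ, a leucine zipper protein that carries out part of the anti-inflammatory action of glucocorticoids. Tsc22d3 (ENSMUSG00000031431.13, chromosome X, 140539528 to 140600659, minus strand) measured 24.5 FPKM at D0 against 101 at D7 (ratio 4.12, interval 3.78 to 4.47) from about 724 and 2529 fragments. Its paralogs differed from it in direction or size. Tsc22d1 had FPKM of 198 and 298, a ratio of 1.51 (1.48 to 1.53). Tsc22d2 fell from 15.0 to 6.76, a ratio of 0.452 (0.422 to 0.483). Tsc22d4 had FPKM of 32.9 and 25.0, a ratio of 0.760 (0.714 to 0.806). Tsc22d3 was thus the only gene of the 4 that was higher by at least 2.0-fold, and its interval did not overlap those of the others.

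Per1 encodes a repressor of the circadian clock whose transcription is raised by glucocorticoids, by cAMP and by the clock itself. Per1 (ENSMUSG00000020893.17, chromosome 11, 69095217 to 69109960, plus strand) measured 6.13 FPKM at D0 against 15.2 at D7 (ratio 2.48, interval 2.24 to 2.73). Per2 and Per3 moved by a like amount, with FPKM of 0.872 and 2.39 for Per2 and of 1.84 and 4.40 for Per3. Their ratios of 2.74 (2.17 to 3.48) and 2.39 (2.04 to 2.82) had intervals that overlapped that of Per1. All 3 genes passed 2.0-fold upward, beside 18.5% of all genes. Only Per2 did so under the library-median scaling, and only Per1 when 1 was added to each FPKM. Each stage was sampled once, and a time of day is not given in the labels.

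Zbtb16 encodes PLZF, a zinc finger repressor that is silent in many cells and strongly induced by glucocorticoids. Zbtb16 (ENSMUSG00000066687.5, chromosome 9, 48654297 to 48836222, minus strand) had an FPKM of 0.00944 at D0, from about 1 fragment, and 12.9 at D7, from about 1166 fragments. This 1372-fold ratio had a counting interval from 246 to 54222, wide in size but wholly above 1. It ranked 18 among the 14986 ratios. Relative to the limit of 3 fragments at D0, which is an FPKM of 0.0283, the level at D7 was 457 times higher. No other gene of the 10 was near the detection limit at D0.

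**Figure D3:**
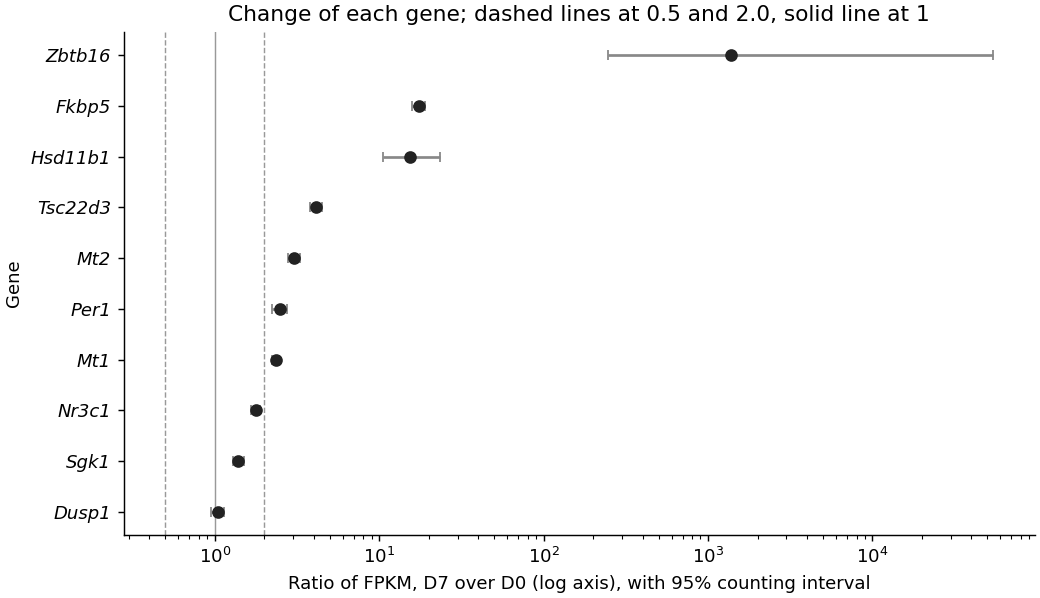
Ratio of FPKM, D7 over D0 (x axis, log scale), of each of the 10 genes with its exact 95% counting interval, 1 library per stage. The dashed lines mark 0.5 and 2.0 and the solid line marks 1, and the interval of Zbtb16 is wide because about 1 fragment stands behind its value at D0.

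Mt1 and Mt2 encode metallothioneins, small cysteine-rich proteins that bind zinc and copper and whose genes answer to metals, glucocorticoids and oxidative stress. Mt1 (ENSMUSG00000031765.8, chromosome 8, 94179082 to 94180327, plus strand) measured 257 FPKM at D0 against 607 at D7 (ratio 2.36, interval 2.22 to 2.47). Mt2 (ENSMUSG00000031762.7, chromosome 8, 94172664 to 94173568, plus strand) measured 113 FPKM at D0 against 343 at D7 (ratio 3.05, interval 2.78 to 3.28). By level they lay at the 98.7 (Mt1) and 96.9 (Mt2) percentiles of all genes at D0, and the intervals of their ratios did not overlap. The genes lie 5513 bp apart, with the GRE match shown above in the window between them. The level of Mt1 was 2.29 times that of Mt2 at D0 and 1.77 times at D7. The longest exact run that their transcripts share is 20 bp, which is shorter than the reads of 90 bases. The alignment described in the paper accepted some mismatches, and whether reads of one gene were counted for the other was not tested. An antisense transcript, Gm45774, overlaps 69.5% of the exonic bases of Mt2, and whether strand was used in counting is not stated, so the value of Mt2 is less certain than that of Mt1.

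Other genes of metal handling did not follow the metallothioneins. Of 19 genes for metallothioneins and zinc handling, 16 were above 0 in both libraries. Of these, Mt1 and Mt2 were higher and 1 was lower by at least 2.0-fold. These shares of 12.5% and 6.25% stood beside 18.5% higher and 13.2% lower over all genes. The zinc-sensing factor Mtf1 had FPKM of 3.69 and 3.97, a ratio of 1.08 (0.956 to 1.21). The zinc exporter Slc30a1, another target of Mtf1, had FPKM of 3.13 and 3.47, a ratio of 1.11 (0.951 to 1.30). The zinc transporter Slc30a9 had a ratio of 1.41. The lowest ratios were those of the transporters of zinc into the cytosol Slc39a6 (0.316), Slc39a14 (0.503) and Slc39a7 (0.564), and the median log2 ratio of the 16 genes was -0.53. Mt3 and Mt4 were listed at 0 in both libraries, and Slc30a10 was listed at 0 at D7 and had about 1 fragment at D0.

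Sgk1 and Dusp1, both immediate early targets, differed little between the stages. Sgk1 encodes a kinase that regulates ion channels and is induced by serum and by glucocorticoids. Sgk1 (ENSMUSG00000019970.15, chromosome 10, 21882184 to 21999903, plus strand) measured 18.8 FPKM at D0 against 26.2 at D7. Its ratio of 1.39 (1.29 to 1.50) excluded 1 by counting error at the length of the named transcript and became 1.09 under the library-median scaling. Sgk3 had FPKM of 1.08 and 1.51, a ratio of 1.39 (1.03 to 1.88), and Sgk2 had no fragment at D0 and about 2 at D7. The annotation holds 13 transcripts and several starts of Sgk1, of which the start with the GRE match is 1, and the table has a single value for them all.

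Dusp1 encodes a phosphatase that switches off MAP kinases, and it is a mediator of the anti-inflammatory action of glucocorticoids. Dusp1 (ENSMUSG00000024190.7, chromosome 17, 26505590 to 26562128, minus strand) measured 27.5 FPKM at D0 against 28.7 at D7. Its ratio of 1.05 (0.955 to 1.14) included 1, and the library-median scaling turned it to 0.819. Of 10 MAP kinase phosphatases, 9 were above 0 in both libraries, with 2 higher and 2 lower by at least 2.0-fold. These shares of 22.2% each stood beside 18.5% higher and 13.2% lower over all genes. Dusp4 rose from 10.2 to 33.2, a ratio of 3.26 (2.95 to 3.59), and Dusp10 rose from 2.24 to 5.91, a ratio of 2.63 (2.13 to 3.27). Dusp5 fell from 1.91 to 0.788, and Dusp9 fell from 1.02 to 0.152. Dusp6 had a ratio of 1.20, Dusp8 of 0.901, Dusp7 of 0.870 and Dusp16 of 0.816. Dusp2 had no fragment at D0 and about 1 at D7.

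In order of level per length, the 10 genes at D0 ran from Mt1 and Mt2 over Dusp1, Tsc22d3, Sgk1, Nr3c1, Fkbp5, Per1 and Hsd11b1 to Zbtb16. At D7 the order was Mt1, Mt2, Fkbp5, Tsc22d3, Dusp1, Sgk1, Nr3c1, Hsd11b1, Per1 and Zbtb16. Fkbp5 moved from the 69.5 percentile of all genes to the 97.1 percentile, Hsd11b1 from 52.6 to 82.0, and Zbtb16 from 33.3 to 77.3. From Dusp1 to Zbtb16 the levels at D7 lay between 28.7 and 12.9, and without replicates it is unknown which of these neighbours differ.

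Cofactors through which the receptor acts were mostly alike at both stages. Of 15 coregulator genes, 3 (20%) were higher by at least 2.0-fold and 0 were lower, with a median log2 ratio of 0.00. The share of higher genes was near that over all genes, of which 18.5% were higher and 13.2% lower. Ppargc1a, a coactivator of brown fat thermogenesis, had FPKM of 0.0370 and 4.41, from about 5 and 505 fragments, a ratio of 119 (50.6 to 367). Nrip1, a corepressor of metabolic genes, had a ratio of 3.51 (3.18 to 3.88), and Ncoa1, a coactivator of steroid receptors, a ratio of 2.78 (2.49 to 3.10). Among the lower ratios were those of the methyltransferase Carm1 (0.597) and the remodeller Smarca4 (0.664). Under the library-median scaling, Carm1 was among the genes of this list that passed 2.0-fold downward.

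Of 33 further genes known to be raised by glucocorticoids, 32 were above 0 in both libraries, 18 of them were higher by at least 2.0-fold and 1 was lower, and Tat was listed at 0 in both. Their median log2 ratio was 1.31, beside 18.5% higher and a median of 0.02 over all genes. Counted over all 33, 16 were higher under the library-median scaling and 15 when 1 was added to each FPKM. The highest ratios were those of Lcn2, a siderophore-binding protein, Agt, the precursor of angiotensin, and Glul, the glutamine synthetase. Lcn2 went from an FPKM of 0.207, about 3 fragments, to 484, a ratio of 2333 (868 to 12311). Agt rose from 2.78 to 467, a ratio of 168 (138 to 206), and Glul rose from 12.2 to 679, a ratio of 55.7 (51.6 to 60.1). Many genes of this list are also regulated by adipogenic factors, and adipocyte markers were higher in the same library, so the part of each in these values was not tested.

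The lowest ratios of this list were those of Gadd45b, Crispld2 and Cebpb. Gadd45b, a stress-response gene, fell from 28.3 to 11.9 FPKM (ratio 0.420, interval 0.360 to 0.486). Crispld2, a secreted protein, had FPKM of 3.82 and 2.32, a ratio of 0.606 (0.499 to 0.730). Cebpb, an early adipogenic transcription factor, had FPKM of 47.5 and 30.9, a ratio of 0.650 (0.592 to 0.709). The call for Trim63 rested on about 5 and 11 fragments, with an interval from 0.829 to 9.50. That for Pck1, with a ratio of 34.1 (5.87 to 1439.8), rested on about 1 and 30 fragments.

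Of 15 genes that glucocorticoids are known to repress, 13 were above 0 in both libraries. Of these, 11 were lower by at least 2.0-fold and 1 was higher, with a median log2 ratio of -2.59, beside 13.2% lower and a median of 0.02 over all genes. Of 8 preadipocyte markers, Thy1 (ratio 0.469), Pdgfrb (0.340) and Col1a1 (0.316) were lower in the same library. Dlk1 (10.8) and Cd34 (8.29) were higher, and the other 3 changed by less than 2.0-fold. The part of preadipocytes in the values of the repressed genes was not tested. Ptgs2, the inducible cyclooxygenase, fell from 67.8 to 0.870 FPKM (ratio 0.0128, interval 0.00997 to 0.0163). Il6, a cytokine, fell from 9.90 to 0.484, a ratio of 0.0489 (0.0196 to 0.0922). Cxcl5, a chemokine, went from 8.55 to 0.0372, that is, from about 256 fragments to about 1, a ratio of 0.00435 (0.000116 to 0.0258). The adhesion molecules Vcam1 and Icam1 fell with ratios of 0.432 and 0.455, and the cytokine Lif with a ratio of 0.487. Tnf passed 2.0-fold upward with a ratio of 4.12 on about 2 and 7 fragments, and its interval from 0.784 to 40.6 included 1. Mmp3 had a ratio of 0.544 (0.250 to 1.11), and Il1b and Nos2 were listed at 0 in both libraries.

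**Figure D4:**
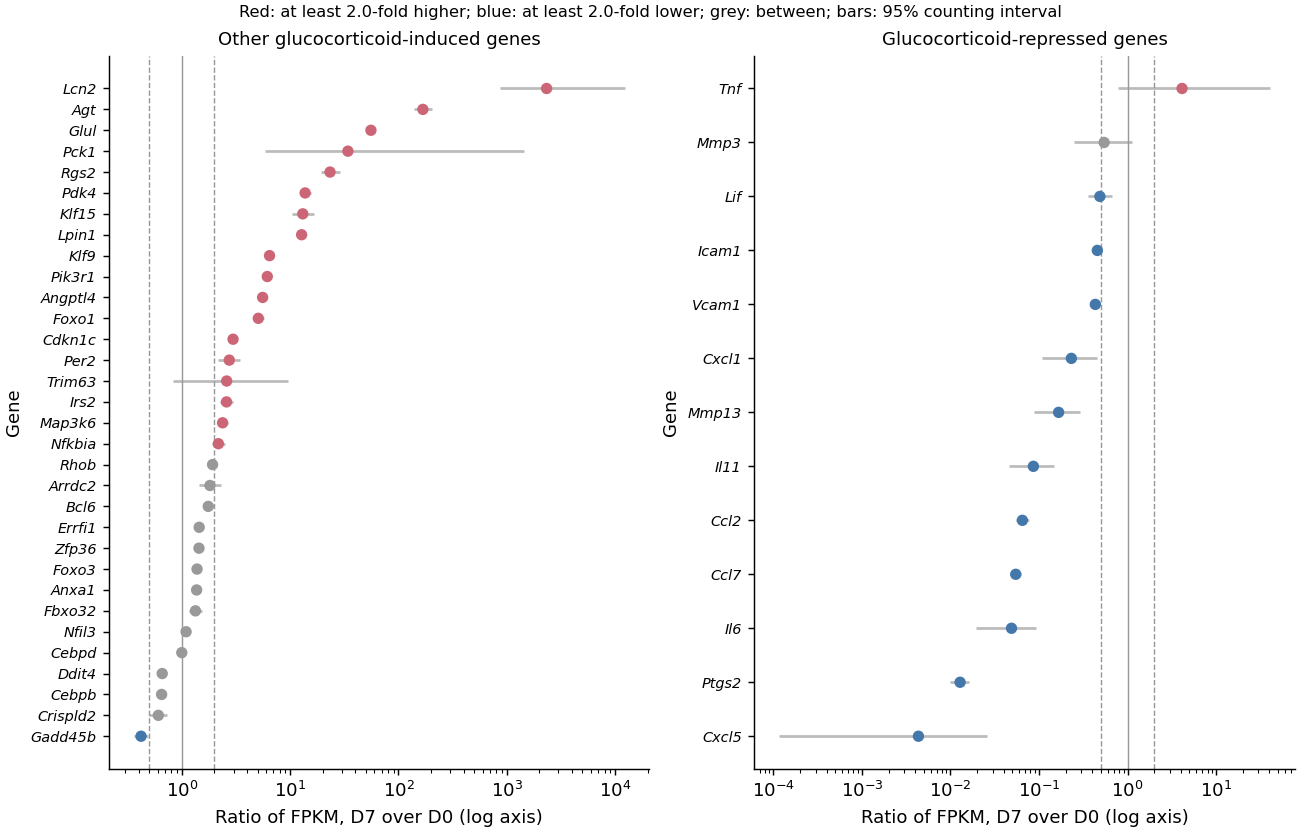
Ratio of FPKM, D7 over D0 (x axis, log scale), for 32 further glucocorticoid-induced genes (left) and 13 glucocorticoid-repressed genes (right) above 0 in both libraries, with exact 95% counting intervals as grey bars. Red points are at least 2.0-fold higher at D7 (18 on the left, 1 on the right), blue points at least 2.0-fold lower (1 on the left, 11 on the right), and grey points lie between.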

How the data were processed

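RNA-Seq values of 1 library at D0 and 1 at D7 were used. Per the paper, the authors filtered reads, removed duplicates and rRNA, and aligned the rest to mm10 with SOAP2. The submitters' processing notes name Bowtie2 and mm10. The deposited values are FPKM, 1 for each gene in a library. The table had 27324 rows, of which 3963 were blank, and 0 columns of values were left unmatched.

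From the deposited FPKM values, ratios were taken for genes above 0 in both libraries, without pseudocount or rescaling, and the closing section gives the alternatives. The number of fragments was recovered on 600 single-exon genes (600 bp or longer), with 179 and 182 bp taken from each length. All of 79 low values at D0 and 90 at D7, up to 20 fragments, were whole within 0.1. For genes with several exons the length of the named transcript was used, and their fragments are approximate. The limit for a low count was 3 fragments. Positions follow GENCODE M21. Promoters are from RefSeq. The symbols Emr1 and Beta-s were matched through synonyms.

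The 10 genes and all lists were chosen with earlier results of these data known. Besides the 10 genes, the text names the 3 highest and 3 lowest ratios of each list at an FPKM of at least 1, all genes of the paralog families and of the steroid handling list, and any marker. Other genes (Pck1, Trim63, Tnf, Mmp3, Il1b, Nos2, Tat, Fkbp4, Mtf1, Slc30a1, Mt3, Mt4 and Slc30a10) were named after their values were seen. The value of 1 coregulator gene that this rule names is not reported here. Scripts were tested on simulated data. Computations ran under Python 3.11.15 with pandas 2.3.3, scipy 1.17.1, matplotlib 3.10.9 and numpy 2.4.6.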

Additional observations from a re-analysis of the deposited data

How the results depend on the processing

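The count of 7 higher and 0 lower genes among the 10 was recomputed with pseudocounts of 0.1 and 1, a floor of 0.01, TPM, 3 other scalings, the floor with the library median, rows with the same symbol summed, and filters at FPKM of 1 and 0.1. It stayed between 5 and 7 higher and at 0 lower, and was 4 higher at 4.0-fold. The filter at 0.1 removed Zbtb16. Its ratio was 119 with a pseudocount of 0.1 and 13.8 with 1, and that of Hsd11b1 was 8.71 with 1. The lowest ratio of the other 8 genes came from the floor with the library median, with 13.7 for Fkbp5, 3.23 for Tsc22d3, 2.39 for Mt2, 1.94 for Per1, 1.85 for Mt1, 1.39 for Nr3c1, 1.09 for Sgk1 and 0.819 for Dusp1. Over all genes, 1533 were higher and 1021 lower with a pseudocount of 1, and 2836 and 3832 with the floor and the library median. The counts of 10 lists of further genes were within 1.5 times of those reported in 200 of 220 recomputed values. With the floor and the library median, the lower genes of zinc handling went from 1 to 5 and the higher ones from 2 to 1, and 16 further induced genes were higher and 2 lower, while 12 repressed genes were lower. With transcript lengths other than the named one, the fragments of Hsd11b1 at D0 ranged from 5 to 45. Those of Nr3c1 ranged from 29 to 1489, of Sgk1 from 37 to 1179 and of Per1 from 42 to 592. The number of fragments sets the width of an interval, and all intervals given here hold for the main length alone. No paired analysis was possible because each stage has 1 library.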
